A study of Homo sapiens with 32 samples.

Results

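The genes described here are 44 human chaperone genes of the heat shock response and of protein folding in the cytosol, chosen by gene symbol from each of the 6 deposited count tables. All 44 had an entry in every table, against 57445 entries in each of the larger tables. By role they are 2 heat shock factors, 5 cytosolic HSP70 genes, 4 genes of the HSP110 and nucleotide exchange class, 8 HSP40 genes, HSP90 and its co-chaperones (9 genes), 3 small heat shock proteins, the 8 subunits of the TRiC chaperonin and 5 chaperones of other compartments. That last class goes against the label cytosolic, since HSPA9, HSPD1, HSPE1 and DNAJA3 encode mitochondrial proteins and HSPA13 a protein of the endoplasmic reticulum.

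RNA was measured in 32 libraries of 4 prostate cancer cell lines obtained from ATCC, in 16 groups of 2. LNCaP is an androgen-responsive line from a lymph node metastasis, and C4-2 a castration-resistant subline of it. 22Rv1 is a line from a relapsed xenograft that expresses androgen receptor variants, and PC3 a line from a bone metastasis that lacks androgen receptor signalling. In the shRNA experiment each line was infected with shCSN5 or with a scramble shRNA. COPS5 encodes CSN5, the protease of the COP9 signalosome, a complex that takes the ubiquitin-like protein NEDD8 off cullin ubiquitin ligases. In the inhibitor experiment, LNCaP and 22Rv1 had CSN5i-3, a small-molecule inhibitor of CSN5, at 5 µM or DMSO, and PC3 had CSN5i-3 at 10 µM or DMSO. For the C4-2 inhibitor libraries the labels conflict. Those titled C5i are described as DMSO, and those titled NT as CSN5i-3 at 1 µM. Their comparison is therefore given as titled C5i minus titled NT, with no direction in terms of treatment. The doses differ between lines, no treatment times were found in the labels, and each line is 1 cell line grown in culture.

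Heat shock proteins keep other proteins folded, or hold misfolded ones until they can be refolded or degraded. HSP70 binds exposed hydrophobic stretches of a client, HSP40 proteins deliver clients and start the ATPase cycle of HSP70, and nucleotide exchange factors such as HSP110 and BAG3 let the client go. HSP90 with its co-chaperones matures kinases and steroid hormone receptors, the androgen receptor of prostate cells among them. TRiC is a ring-shaped chamber in which actin, tubulin and other proteins fold. Many of these genes are transcribed by heat shock factor 1, HSF1, which binds arrays of the unit nGAAn in alternating orientation, the heat shock element.

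The promoter stretches below are shown for genes on which the results turn and whose window held a match, as described below. They are HSP70, HSP40 and HSP90 genes called in both PC3 experiments, HSPB8 and DNAJB4, which rose in several lines, and a TRiC subunit. A RefSeq promoter window (GRCh38.p14, 250 bases before to 50 bases after the transcription start) was at hand for 38 of the 44 genes. HSF1, HSPA14, FKBP4, STUB1, CRYAB and CCT6A had none. Both strands were searched for GAANNTTC and for TTCNNGAA, each of which reads the same on the opposite strand, and 3 units in a row count for both. Either was found for 19 of the 38 genes, against 16.2% of the 27305 genes of the table. BAG3, HSPH1 and DNAJB2, on which the results also turn, had a window with neither. An array of 3 units was found for 7 of the 38 (18.4%), against 0.608% of all genes. Capitals mark every match, each line is read 5′ to 3′ on the strand of the gene, and a match is a description of letters, not of a bound site.
HSPA8: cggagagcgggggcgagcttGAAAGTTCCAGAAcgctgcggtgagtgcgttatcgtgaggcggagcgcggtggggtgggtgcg
HSPA1A: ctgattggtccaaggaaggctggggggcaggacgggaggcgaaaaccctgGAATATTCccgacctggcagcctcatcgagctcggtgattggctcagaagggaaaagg
HSPA1B: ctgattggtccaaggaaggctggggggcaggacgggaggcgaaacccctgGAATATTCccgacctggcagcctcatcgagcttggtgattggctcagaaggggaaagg
DNAJB1: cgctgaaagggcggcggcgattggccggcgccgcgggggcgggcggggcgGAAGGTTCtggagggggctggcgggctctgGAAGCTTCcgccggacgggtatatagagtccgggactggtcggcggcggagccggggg
HSP90AB1: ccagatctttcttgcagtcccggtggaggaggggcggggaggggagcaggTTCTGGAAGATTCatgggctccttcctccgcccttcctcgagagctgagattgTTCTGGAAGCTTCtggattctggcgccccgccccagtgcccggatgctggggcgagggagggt
HSPB8: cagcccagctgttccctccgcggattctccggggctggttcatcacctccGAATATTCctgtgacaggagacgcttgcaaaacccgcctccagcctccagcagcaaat
DNAJB4: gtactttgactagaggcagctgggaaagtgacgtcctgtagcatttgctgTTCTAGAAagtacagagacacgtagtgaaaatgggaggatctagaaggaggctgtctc
TCP1: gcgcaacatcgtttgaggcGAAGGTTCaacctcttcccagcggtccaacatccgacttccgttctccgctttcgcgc

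These stretches lie at chr11:123062304-123062386 on the minus strand (HSPA8), chr6:31815387-31815494 on the plus strand (HSPA1A), chr6:31827583-31827690 on the plus strand (HSPA1B), chr19:14518387-14518524 on the minus strand (DNAJB1), chr6:44247728-44247893 on the plus strand (HSP90AB1), chr12:119178793-119178900 on the plus strand (HSPB8), chr1:78004791-78004898 on the plus strand (DNAJB4) and chr6:159789776-159789852 on the minus strand (TCP1). The first match begins 106 bases before the start of HSPA1A and 105 bases before that of HSPA1B, whose stretches are nearly the same. In the DNAJB1 window shown, the 2 matches begin 77 and 47 bases before its start. Another DNAJB1 window, chr19:14517888-14518187 on the minus strand, is not shown. It held 1 match, which begins 1 base after its own start. In HSPA8 the array begins 230 bases before the start, and in HSPB8, DNAJB4 and TCP1 the match begins 88, 98 and 231 bases before it. By class, GAANNTTC or TTCNNGAA was present for 3 of 4 cytosolic HSP70 genes with a window, 4 of 8 HSP40 genes, 4 of 7 genes of the HSP90 class, both small heat shock genes with a window, 3 of 7 TRiC subunits and 1 of 4 genes of the HSP110 class.

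The libraries held 20607109 to 32473540 counts in the shRNA experiment and 29477194 to 50924252 counts in the inhibitor experiment, and the 2 libraries of a group differed by more than counting error in every group. COPS5 was low in every shCSN5 library, at 2.90 and 1.79 CPM in LNCaP against 53.4 and 52.7 CPM with scramble, and its log2 fold change was -4.50 in LNCaP, -3.56 in C4-2, -2.68 in 22Rv1 and -3.18 in PC3. In the inhibitor experiment it was 0.11 in LNCaP, 0.16 in 22Rv1, 0.48 in PC3 and -0.38 for C4-2 titled C5i minus titled NT. Summed over 8 genes of the luminal androgen receptor program, the LNCaP, C4-2 and 22Rv1 libraries of both experiments held 1264 to 7516 CPM and the PC3 libraries 119.9 to 430.0 CPM. In LNCaP this sum was 1476 to 1477 CPM with CSN5i-3, against 5575 to 5669 CPM with DMSO, and the 3 of 6 leukocyte markers in that table summed to 24.9 to 25.3 CPM with CSN5i-3, against 0.356 to 0.477 CPM with DMSO, where 1 of them was at 0. In PC3 the summed luminal level was 119.9 to 124 CPM with CSN5i-3, against 422 to 430.0 CPM with DMSO. The part of these shifts in the results below was not tested. CPM are counts normalised to library size with TMM scaling, and p-values were adjusted by the method of Benjamini and Hochberg over all genes tested.

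Between the 2 libraries of a group, the log ratio of a gene often followed the GC content of its transcript. Across all genes tested, Pearson's r between the 2 reached -0.70 in LNCaP shCSN5, 0.74 in 22Rv1 CSN5i-3 and -0.64 in 22Rv1 DMSO, and was 0.03 in LNCaP scramble and 0.02 in PC3 DMSO. Genes are not independent replicates, and these r describe the libraries. HSPB1 (64.3% GC) had 150.4 and 469 CPM in LNCaP shCSN5 libraries, against 320.4 and 316 CPM in LNCaP scramble libraries. Its 22Rv1 values were 299 and 103 CPM in 22Rv1 CSN5i-3 libraries, against 107 and 231 CPM in 22Rv1 DMSO libraries. STUB1 (65.0% GC) had 51.3 and 117 CPM in LNCaP shCSN5 libraries, against 132 and 131 CPM in LNCaP scramble libraries. In the LNCaP shCSN5, 22Rv1 CSN5i-3 and 22Rv1 DMSO groups these replicates lay further apart than the means of the groups compared, while the LNCaP scramble replicates lay close together. Results for HSPB1, STUB1, HSF1 (64.7% GC) and CDC37 (60.0% GC) are therefore given with this in view, and the part of GC content in them was not tested beyond an alternative fit with a GC offset.

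**Figure D1:**
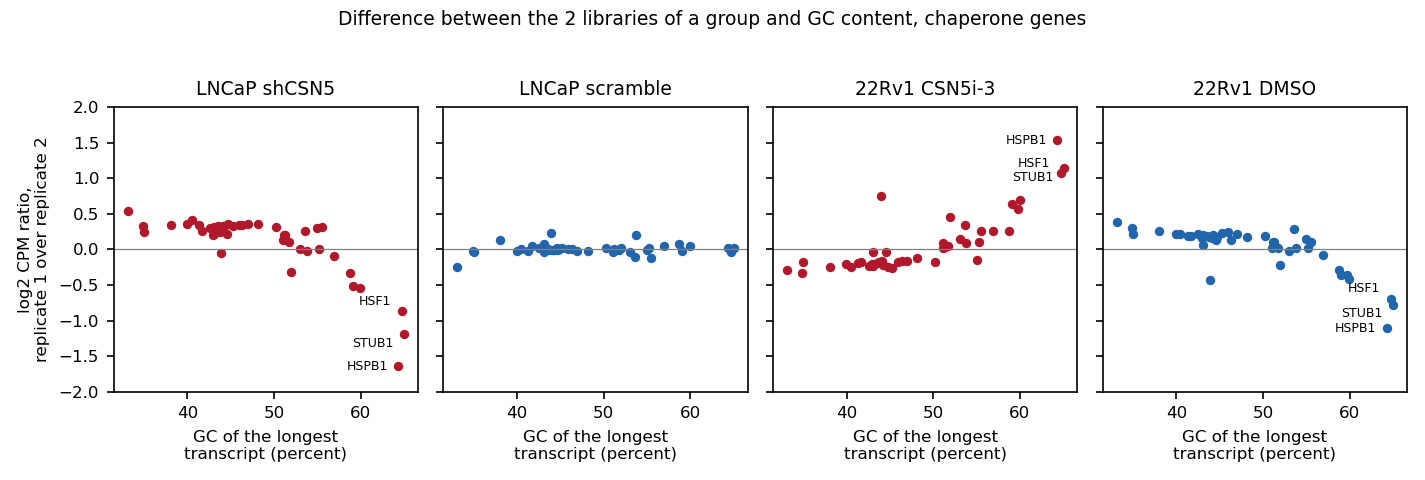
Log2 ratio of CPM, replicate 1 over replicate 2 (vertical axis), against the GC percent of the longest transcript (horizontal axis) for the chaperone genes, each a point, in 4 groups of 2 libraries. The points slope down with GC in LNCaP shCSN5 and 22Rv1 DMSO, slope up in 22Rv1 CSN5i-3 and stay near 0 in LNCaP scramble, with HSPB1, STUB1 and HSF1 at the GC-rich end.

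The effect of shCSN5 on these genes differed with the line, and in PC3 most of them fell. With shCSN5, 24 of 43 tested genes were lower and 3 higher in PC3, against 6.41% lower and 10.3% higher among all genes (16.7% in all). The median log2 fold change was -0.51 for these genes and 0.04 for all genes in PC3. In 22Rv1, 8 of 43 were higher and 14 lower with shCSN5, where 22.6% of all genes were called higher and 21.3% lower (43.9% in all). In LNCaP, 9 of 43 were higher and 4 lower, against 18.3% and 17.4% of all genes (35.7% in all), so the share called was close to that of all genes. In C4-2 only 3 of 43 were higher and 3 lower, against 15.7% and 16.2% of all genes (32.0% in all). None of the 44 genes passed the test in all 4 lines, and 7 were higher in one line and lower in another: HSPA2, HSPA8, BAG3, DNAJA1, DNAJB1, DNAJB6 and HSPA13. The same counts were not made over all genes, so these are not read as a property of the 44.

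With CSN5i-3 31 of the genes were called in LNCaP, 9 in 22Rv1 and 39 in PC3, and the shares of all genes called differed between comparisons as well. In LNCaP at 5 µM, 15 of 44 were higher and 16 lower, where 26.2% and 26.5% of all genes were (52.6% in all). In 22Rv1 at 5 µM, 7 of 44 were higher and 2 lower, against 11.8% and 12.2% of all genes (24% in all). In PC3 at 10 µM, 15 of 44 were higher and 24 lower, against 38.5% of all genes in each direction (77.1% in all). In C4-2, titled C5i minus titled NT, 12 of 43 were higher and 27 lower, against 37.0% and 37.9% of all genes (74.9% in all). The genes lower in all 3 lines with a labelled inhibitor were FKBP4 and HSPE1, and those higher in all 3 were DNAJB2 and DNAJB4, with the call of FKBP4 in PC3 lost under a GC offset. In 22Rv1 the call of each of these genes was lost when a library was left out. Those of FKBP4 and HSPE1 in 22Rv1 were also lost under another alternative fit. How many of all genes were called alike in all 3 lines was not counted. Comparisons of 1 line share no libraries between the 2 experiments. The gene left untested for its low counts was HSPA1A in LNCaP and C4-2 with shCSN5 and in C4-2 titled C5i, CRYAB in 22Rv1 with shCSN5 and HSPB8 in PC3 with shCSN5. In bulk RNA, a change in the share of some cells of a culture and a change in RNA per cell cannot be told apart.

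How often a call held when a library was left out differed between comparisons, and so did the spread between replicates. The chi-square per gene between the 2 libraries of a group, larger with more spread, was 2.36 in PC3 CSN5i-3 and 1.71 in PC3 DMSO. It was 15.4 in PC3 shCSN5 and 32.6 in PC3 scramble. The part of this spread in the counts below was not tested, and how many calls of all genes held was not counted. When each library was left out in turn, 35 of the 39 calls of PC3 CSN5i-3 held, 34 of 39 for C4-2 titled C5i and 18 of 31 for LNCaP CSN5i-3. Fewer held elsewhere, namely 10 of 22 for 22Rv1 shCSN5, 9 of 27 for PC3 shCSN5, 3 of 9 for 22Rv1 CSN5i-3, 2 of 13 for LNCaP shCSN5 and 1 of 6 for C4-2 shCSN5. The LNCaP shCSN5 total was 2 without either scramble library and 36 without either shCSN5 library. The PC3 shCSN5 total was 13 without shCSN5 replicate 1 and 11 without replicate 2. In 22Rv1 the shCSN5 total was 11 without shCSN5 replicate 1, and in LNCaP the CSN5i-3 total was 20 without CSN5i-3 replicate 1 and 18 without CSN5i-3 replicate 2. The C4-2 shCSN5 total was 2 without shCSN5 replicate 1 and 1 without scramble replicate 1, and the 22Rv1 CSN5i-3 total was 5 without DMSO replicate 1. The calls that held throughout were HSPB8 and CRYAB for LNCaP shCSN5, HSPB8 for C4-2 shCSN5, and HSPB8, CRYAB and HSPA2 for 22Rv1 CSN5i-3. For PC3 shCSN5 they were HSP90AA1, DNAJA1, HSPA8, HSPE1, TCP1, BAG3, STIP1, HSPA1B and HSPA1A.

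**Figure D2:**
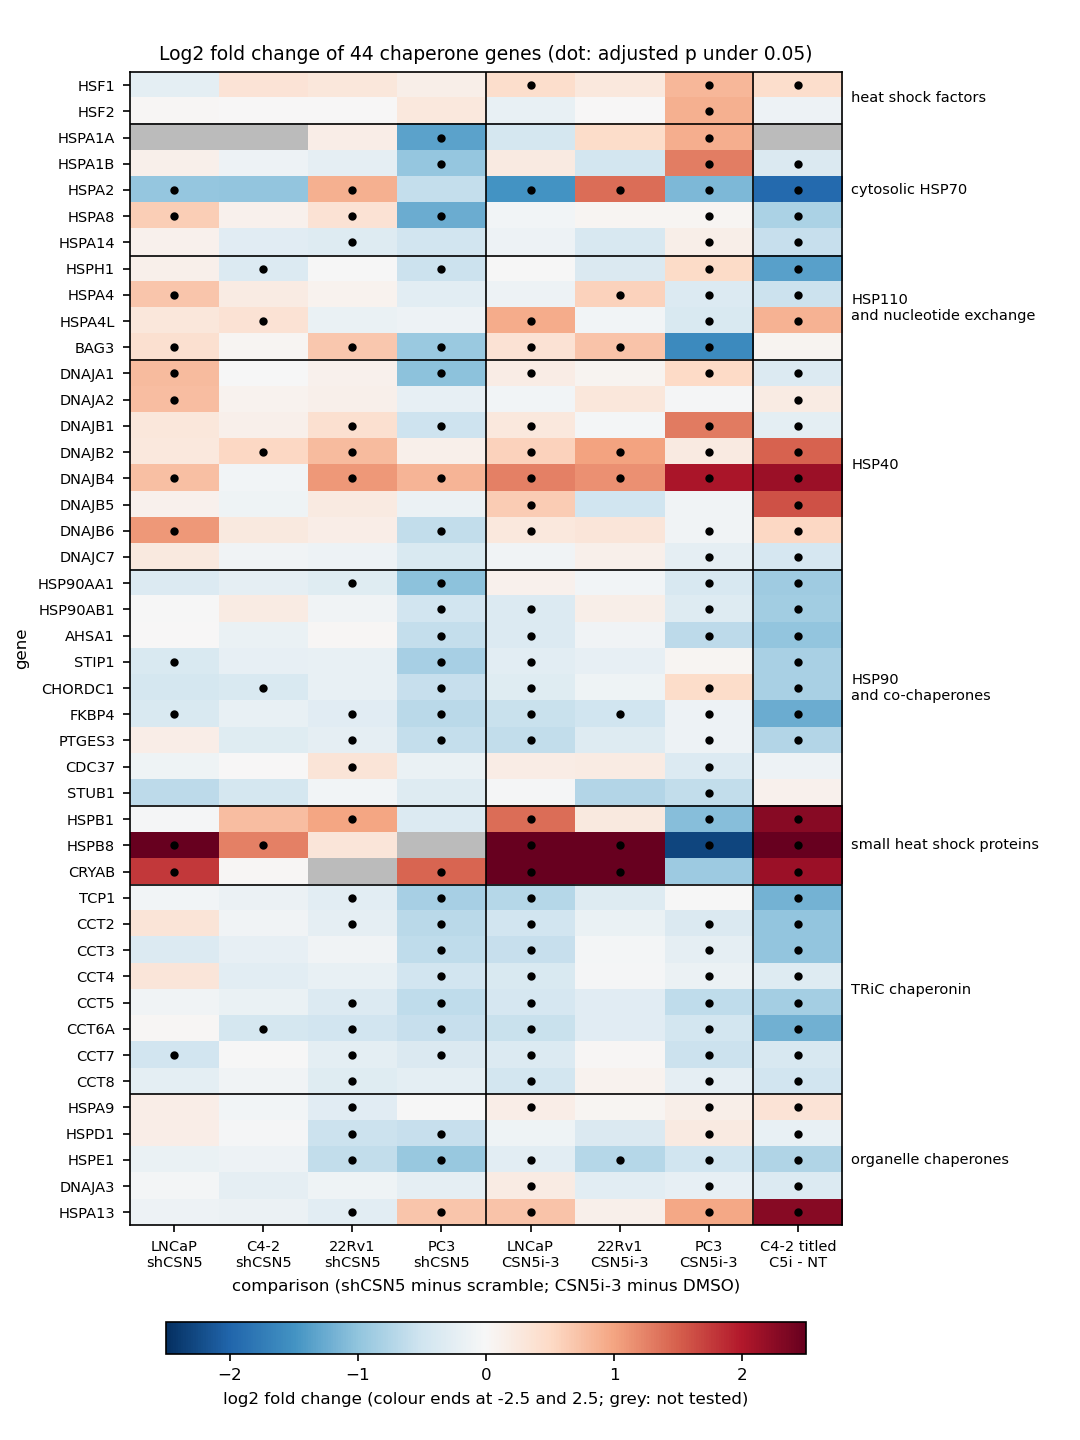
Log2 fold change (colour) of the 44 chaperone genes, in rows by role, in the 8 comparisons, in columns: shCSN5 minus scramble in 4 lines, CSN5i-3 minus DMSO in 3 lines and C4-2 titled C5i minus titled NT. Dots mark an adjusted p under 0.05 and grey marks genes not tested. The TRiC and HSP90 rows are mostly blue, the HSPB8 and CRYAB rows red in most columns outside PC3, and the HSP70 and HSP40 rows differ in colour between the PC3 columns.

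The heat shock factors themselves were not called with shCSN5 and rose in PC3 with CSN5i-3. Neither HSF1, the main stress-activated factor, nor HSF2, a related factor active in development, passed the test in any of the 4 lines, with log2 fold changes of -0.25 to 0.35 for HSF1 and 0.004 to 0.26 for HSF2. None of these 8 values passed edgeR's quasi-likelihood test at an unadjusted p under 0.05 either, and DESeq2 called 0 of them. In LNCaP, leaving out shCSN5 replicate 1 turned the HSF1 value to 0.13. With CSN5i-3, HSF1 rose in PC3, to 374 and 384 CPM in PC3 CSN5i-3 libraries, against 218 and 207 CPM in PC3 DMSO libraries (log2 fold change 0.83 ± 0.03 (SE), adjusted p = 1.2e-35). HSF2 rose there as well, to 26.1 and 24.7 CPM in PC3 CSN5i-3 libraries, against 14.1 and 13.3 CPM in PC3 DMSO libraries (log2 fold change 0.89 ± 0.06 (SE), adjusted p = 8.5e-20). The 2 libraries of each PC3 group lay close together and the groups did not overlap for either gene. In LNCaP, HSF1 was higher with CSN5i-3 at 118 and 110.5 CPM in LNCaP CSN5i-3 libraries, against 70.7 and 98.6 CPM in LNCaP DMSO libraries (log2 fold change 0.43 ± 0.14 (SE), adjusted p = 0.040), a call that was lost when a library was left out. These are levels of RNA, and the activation of HSF1 by trimer formation and phosphorylation is not visible in them.

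In PC3 the stress-inducible HSP70 pair fell with shCSN5 and rose with CSN5i-3, and the constitutive HSPA8 fell with shCSN5. HSPA8, the constitutive HSC70, had 1293 and 1169.6 CPM in PC3 shCSN5 libraries, against 3031 and 2782 CPM in PC3 scramble libraries. Both shCSN5 libraries were far below both scramble libraries in PC3 (log2 fold change -1.24 ± 0.10 (SE), adjusted p = 0.0044). In LNCaP it was higher with shCSN5, with 5971 and 4649 CPM in LNCaP shCSN5 libraries, against 3457 and 3514 CPM in LNCaP scramble libraries (log2 fold change 0.61 ± 0.14 (SE), adjusted p = 0.021). It was also higher in 22Rv1 (log2 fold change 0.36 ± 0.09 (SE), adjusted p = 0.0081). The difference in effect between PC3 and LNCaP was -1.91 ± 0.19 (SE), adjusted p = 3.8e-04. With CSN5i-3 in PC3, HSPA8 had 651 and 656 CPM in PC3 CSN5i-3 libraries, against 626 and 631 CPM in PC3 DMSO libraries (log2 fold change 0.06 ± 0.02 (SE), adjusted p = 0.024), a small change that was lost when 1 library was left out.

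HSPA1A and HSPA1B encode the same stress-inducible HSP70 from neighbouring genes. In the reference transcripts 72.6% of all words of 50 bases of HSPA1A also occur in HSPA1B, so the counts of the pair can be split between them in ways that cannot be told apart here. HSPA1B had 17.5 and 18.4 CPM in PC3 shCSN5 libraries, against 32.6 and 38.0 CPM in PC3 scramble libraries (log2 fold change -0.97 ± 0.14 (SE), adjusted p = 0.014). With CSN5i-3 it had 54.6 and 54.8 CPM in PC3 CSN5i-3 libraries, against 23.2 and 21.7 CPM in PC3 DMSO libraries (log2 fold change 1.29 ± 0.05 (SE), adjusted p = 2.0e-32). HSPA1A moved the same ways, with a log2 fold change of -1.33 ± 0.25 (SE) for shCSN5 and 0.90 ± 0.05 for CSN5i-3 in PC3. Summed over the pair, the PC3 libraries held 30.5 and 35.7 CPM with shCSN5 against 62.7 and 84.3 CPM with scramble, and 100.3 and 100.3 CPM with CSN5i-3 against 48.1 and 45.3 CPM with DMSO. All groups were apart in both experiments. In LNCaP, C4-2 and 22Rv1 neither gene passed the test with shCSN5 or with a labelled inhibitor, and HSPA1B of 22Rv1 had 48.4 and 42.3 CPM in 22Rv1 shCSN5 libraries, against 53.9 and 52.0 CPM in 22Rv1 scramble libraries. HSPA1A held 0 or 1 count in every LNCaP and C4-2 library of the shRNA experiment and 0 to 19 counts in those of the inhibitor experiment, against 927 and 1136 counts in PC3 scramble, and was not tested in LNCaP and C4-2 with shCSN5.

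HSPA2, an HSP70 known from the testis, rose in 22Rv1 and fell in LNCaP and, with CSN5i-3, in PC3. In 22Rv1 it had 21.5 and 19.5 CPM in 22Rv1 shCSN5 libraries, against 11.5 and 10.6 CPM in 22Rv1 scramble libraries (log2 fold change 0.89 ± 0.13 (SE), adjusted p = 2.7e-04). Its levels were 58.2 and 34.8 CPM in 22Rv1 CSN5i-3 libraries, against 15.1 and 20.3 CPM in 22Rv1 DMSO libraries (log2 fold change 1.40 ± 0.29 (SE), adjusted p = 0.019). In PC3 it fell with CSN5i-3, to 6.74 and 5.70 CPM in PC3 CSN5i-3 libraries, against 14.5 and 12.6 CPM in PC3 DMSO libraries (log2 fold change -1.12 ± 0.09 (SE), adjusted p = 2.6e-17). LNCaP levels were low throughout, at 0.623 and 0.645 CPM in LNCaP shCSN5 libraries, against 1.34 and 1.15 CPM in LNCaP scramble libraries (log2 fold change -0.97 ± 0.27 (SE), adjusted p = 0.035), and -1.49 on the log2 scale with CSN5i-3. The groups did not overlap in any of these pairs. HSPA14, a ribosome-associated HSP70, was lower with shCSN5 in 22Rv1 (log2 fold change -0.33 ± 0.09 (SE), adjusted p = 0.0097) and slightly higher in PC3 with CSN5i-3 (log2 fold change 0.15 ± 0.06 (SE), adjusted p = 0.022), where a fit with a GC offset gave -0.02.

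Among the genes that release clients from HSP70, BAG3 changed direction with the line. BAG3 links HSP70 to small heat shock proteins and to autophagy. It had 56.8 and 53.8 CPM in 22Rv1 shCSN5 libraries, against 35.4 and 33.6 CPM in 22Rv1 scramble libraries (log2 fold change 0.68 ± 0.09 (SE), adjusted p = 1.8e-04). Its levels were 64.8 and 54.0 CPM in 22Rv1 CSN5i-3 libraries, against 35.3 and 37.2 CPM in 22Rv1 DMSO libraries (log2 fold change 0.71 ± 0.17 (SE), adjusted p = 0.027). In PC3 it had 92.1 and 103 CPM in PC3 shCSN5 libraries, against 173 and 198 CPM in PC3 scramble libraries (log2 fold change -0.92 ± 0.12 (SE), adjusted p = 0.011). Its levels were 47.4 and 46.4 CPM in PC3 CSN5i-3 libraries, against 139.9 and 142 CPM in PC3 DMSO libraries (log2 fold change -1.59 ± 0.03 (SE), adjusted p = 8.2e-44). BAG3 was thus higher in both 22Rv1 experiments and lower in both PC3 experiments, with no overlap between the libraries of a pair. In LNCaP it was higher in both as well, by 0.39 ± 0.12 (SE) with shCSN5 and 0.36 ± 0.08 with CSN5i-3, and in C4-2 with shCSN5 it was 0.05 ± 0.10. The BAG3 calls of 22Rv1 with shCSN5 and of both PC3 experiments held in every alternative fit. Those of 22Rv1 with CSN5i-3 and of both LNCaP experiments were lost when a library was left out. The PC3 and LNCaP effects of shCSN5 differed by -1.38 ± 0.15 (SE), adjusted p = 6.3e-04.

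The HSP110 genes follow. HSPH1, which exchanges the nucleotide of HSP70 and takes part in disaggregation, fell with shCSN5 in PC3, with 241 and 218 CPM in PC3 shCSN5 libraries, against 354 and 312 CPM in PC3 scramble libraries (log2 fold change -0.53 ± 0.11 (SE), adjusted p = 0.031), and in C4-2 (log2 fold change -0.34 ± 0.11 (SE), adjusted p = 0.043). With CSN5i-3 in PC3 it rose, with 130.2 and 129 CPM in PC3 CSN5i-3 libraries, against 92.6 and 94.6 CPM in PC3 DMSO libraries (log2 fold change 0.47 ± 0.03 (SE), adjusted p = 9.3e-21). HSPA4, another HSP110 gene, was higher in LNCaP with shCSN5, at 558 and 454 CPM in LNCaP shCSN5 libraries, against 316 and 313 CPM in LNCaP scramble libraries (log2 fold change 0.69 ± 0.14 (SE), adjusted p = 0.012). It was higher in 22Rv1 with CSN5i-3 (log2 fold change 0.57 ± 0.15 (SE), adjusted p = 0.039), but lower in PC3 with CSN5i-3 (log2 fold change -0.35 ± 0.03 (SE), adjusted p = 4.5e-17). HSPA4L, a close relative of HSPA4, rose with CSN5i-3 in LNCaP, to 33.8 and 34.2 CPM in LNCaP CSN5i-3 libraries, against 19.7 and 15.9 CPM in LNCaP DMSO libraries (log2 fold change 0.94 ± 0.11 (SE), adjusted p = 4.5e-04).

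Among the HSP40 genes, DNAJB4 and DNAJB2 rose in most comparisons. DNAJB4, which encodes a partner of HSP70 found in many tissues, passed the test as higher in 3 of the 4 shRNA comparisons and all 3 labelled inhibitor comparisons. It was also higher for C4-2 titled C5i minus titled NT. In 22Rv1 it had 44.7 and 42.3 CPM in 22Rv1 shCSN5 libraries, against 19.6 and 21.5 CPM in 22Rv1 scramble libraries (log2 fold change 1.08 ± 0.11 (SE), adjusted p = 1.6e-05). In LNCaP with CSN5i-3 it had 15.6 and 16 CPM in LNCaP CSN5i-3 libraries, against 7.12 and 6.03 CPM in LNCaP DMSO libraries (log2 fold change 1.27 ± 0.11 (SE), adjusted p = 1.1e-04). In PC3 it had 22.3 and 23.2 CPM in PC3 CSN5i-3 libraries, against 5.48 and 5.62 CPM in PC3 DMSO libraries (log2 fold change 2.03 ± 0.08 (SE), adjusted p = 4.9e-32). In each of these the groups were well apart. PC3 with shCSN5 had 0.85 ± 0.19 (SE), and C4-2 with shCSN5, the exception, had 24.9 and 27.1 CPM in C4-2 shCSN5 libraries, against 30.7 and 23.6 CPM in C4-2 scramble libraries, which overlapped. The 22Rv1 and C4-2 effects of shCSN5 differed by 1.12 ± 0.17 (SE), adjusted p = 0.0040.

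DNAJB2, which sorts ubiquitinated clients of HSP70 toward the proteasome, was higher in 2 of the 4 shRNA comparisons and all 3 labelled inhibitor comparisons. It was also higher for C4-2 titled C5i minus titled NT. It had 55.6 and 50.2 CPM in 22Rv1 shCSN5 libraries, against 33.9 and 27.5 CPM in 22Rv1 scramble libraries (log2 fold change 0.79 ± 0.12 (SE), adjusted p = 3.0e-04). In LNCaP with CSN5i-3 it had 114 and 108 CPM in LNCaP CSN5i-3 libraries, against 69.0 and 80.8 CPM in LNCaP DMSO libraries (log2 fold change 0.57 ± 0.09 (SE), adjusted p = 0.0017). In 22Rv1 it had 88.9 and 57.0 CPM in 22Rv1 CSN5i-3 libraries, against 31.8 and 40.7 CPM in 22Rv1 DMSO libraries (log2 fold change 1.01 ± 0.25 (SE), adjusted p = 0.033). PC3 showed the smallest of the called changes, 0.22 ± 0.03 (SE) with CSN5i-3. In LNCaP and PC3 with shCSN5 it did not pass the test, at 0.27 ± 0.19 and 0.13 ± 0.20.

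DNAJB1 and DNAJA1, the main stress-inducible and constitutive HSP40 partners of HSP70, followed HSPA1B in PC3. DNAJB1 had 223 and 229 CPM in PC3 shCSN5 libraries, against 307 and 337 CPM in PC3 scramble libraries (log2 fold change -0.51 ± 0.09 (SE), adjusted p = 0.025). With the inhibitor it had 459 and 446 CPM in PC3 CSN5i-3 libraries, against 186 and 183 CPM in PC3 DMSO libraries (log2 fold change 1.29 ± 0.03 (SE), adjusted p = 8.3e-46). DNAJA1 had 182 and 166 CPM in PC3 shCSN5 libraries, against 376 and 336 CPM in PC3 scramble libraries (log2 fold change -1.03 ± 0.11 (SE), adjusted p = 0.0074). Its levels were 249.99 and 241 CPM in PC3 CSN5i-3 libraries, against 174 and 176 CPM in PC3 DMSO libraries (log2 fold change 0.49 ± 0.03 (SE), adjusted p = 4.3e-24). Both genes were below scramble in both PC3 shCSN5 libraries and above DMSO in both PC3 CSN5i-3 libraries. In LNCaP, DNAJA1 was higher with shCSN5, at 401 and 335 CPM in LNCaP shCSN5 libraries, against 217 and 209.8 CPM in LNCaP scramble libraries (log2 fold change 0.79 ± 0.13 (SE), adjusted p = 0.0069). DNAJB1 was higher in 22Rv1 with shCSN5 (log2 fold change 0.39 ± 0.08 (SE), adjusted p = 0.0032).

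DNAJB6, a suppressor of aggregation, was the HSP40 gene with the largest rise in LNCaP with shCSN5, at 80.7 and 65.5 CPM in LNCaP shCSN5 libraries, against 34.3 and 34.4 CPM in LNCaP scramble libraries (log2 fold change 1.09 ± 0.16 (SE), adjusted p = 0.0044). It was lower in PC3, at 82.6 and 74.3 CPM in PC3 shCSN5 libraries, against 123 and 118 CPM in PC3 scramble libraries (log2 fold change -0.62 ± 0.10 (SE), adjusted p = 0.020). DNAJA2, a general partner of HSP70, was higher in LNCaP with shCSN5 (log2 fold change 0.77 ± 0.15 (SE), adjusted p = 0.011). DNAJB5 rose in LNCaP with CSN5i-3 (log2 fold change 0.63 ± 0.09 (SE), adjusted p = 0.0011) and in no other labelled comparison. DNAJC7, which binds both HSP70 and HSP90, was lower in PC3 with CSN5i-3 (log2 fold change -0.22 ± 0.04 (SE), adjusted p = 1.4e-07). Across the 4 shRNA comparisons, 9 of the 32 HSP40 values were called higher and 3 lower, the 3 all in PC3, where between 10.3% and 22.6% of all genes were called higher in a comparison and 6.41% to 21.3% lower. Of the 9, 4 were in LNCaP, and this count was 0 without either scramble library and 7 without either shCSN5 library.

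Genes of the HSP90 machine were called lower more often than higher. Of their 36 values in the shRNA experiment 30 were below 0, 13 passed the test as lower and 1 as higher, and of the 27 values in the labelled inhibitor comparisons 14 passed as lower and 1 as higher. Of all genes, 6.41% to 21.3% were called lower in a shRNA comparison and 12.2% to 38.5% in a labelled inhibitor comparison. FKBP4, the immunophilin FKBP52 that assists steroid hormone receptors, was lower in 3 of the 4 shRNA comparisons and all 3 labelled inhibitor comparisons. Of these, the call in PC3 with CSN5i-3 (-0.12) was lost with a GC offset (-0.01). FKBP4 was also lower for C4-2 titled C5i minus titled NT. It had 688 and 628 CPM in LNCaP shCSN5 libraries, against 846 and 869 CPM in LNCaP scramble libraries (log2 fold change -0.38 ± 0.11 (SE), adjusted p = 0.040). With CSN5i-3 it had 305 and 308 CPM in LNCaP CSN5i-3 libraries, against 462 and 445 CPM in LNCaP DMSO libraries (log2 fold change -0.57 ± 0.06 (SE), adjusted p = 1.8e-04). In 22Rv1 with CSN5i-3 it had 369 and 346 CPM in 22Rv1 CSN5i-3 libraries, against 509 and 504 CPM in 22Rv1 DMSO libraries (log2 fold change -0.50 ± 0.13 (SE), adjusted p = 0.033). In PC3 with shCSN5 it had 143 and 145 CPM in PC3 shCSN5 libraries, against 220.2 and 240.1 CPM in PC3 scramble libraries (log2 fold change -0.68 ± 0.09 (SE), adjusted p = 0.014). The FKBP4 libraries of each pair were apart. Averaged over the 4 lines with shCSN5, FKBP4 had a log2 fold change of -0.37 ± 0.07 (SE), adjusted p = 0.0013.

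HSP90AA1, the inducible HSP90, fell most in PC3 with shCSN5, with 2739.9 and 2475 CPM in PC3 shCSN5 libraries, against 5630.1 and 4929 CPM in PC3 scramble libraries (log2 fold change -1.02 ± 0.11 (SE), adjusted p = 0.0082). In 22Rv1 it was lower as well (log2 fold change -0.31 ± 0.09 (SE), adjusted p = 0.018), and in LNCaP with CSN5i-3 it was 0.10 ± 0.07 (SE) with overlapping libraries. HSP90AB1, the constitutive HSP90, was lower in PC3 with shCSN5 (log2 fold change -0.49 ± 0.09 (SE), adjusted p = 0.025) and in LNCaP with CSN5i-3, at 1323 and 1361 CPM in LNCaP CSN5i-3 libraries, against 1761 and 1619.7 CPM in LNCaP DMSO libraries (log2 fold change -0.33 ± 0.06 (SE), adjusted p = 0.0028). In PC3 with CSN5i-3 both fell, with log2 fold changes of -0.39 ± 0.02 and -0.31 ± 0.02 (SE).

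STIP1, which passes clients from HSP70 to HSP90, had 272 and 274 CPM in PC3 shCSN5 libraries, against 470.1 and 505 CPM in PC3 scramble libraries (log2 fold change -0.84 ± 0.09 (SE), adjusted p = 0.0080). AHSA1, an activator of the HSP90 ATPase, had 122 and 125 CPM in PC3 shCSN5 libraries, against 179 and 193 CPM in PC3 scramble libraries (log2 fold change -0.59 ± 0.09 (SE), adjusted p = 0.018). Its levels were 66.2 and 66.9 CPM in PC3 CSN5i-3 libraries, against 106 and 104 CPM in PC3 DMSO libraries (log2 fold change -0.66 ± 0.03 (SE), adjusted p = 1.9e-25). PTGES3, the co-chaperone p23, was lower in LNCaP with CSN5i-3, at 221 and 227 CPM in LNCaP CSN5i-3 libraries, against 348 and 338 CPM in LNCaP DMSO libraries (log2 fold change -0.61 ± 0.06 (SE), adjusted p = 1.4e-04), and with shCSN5 it was 0.17 ± 0.12 there. CHORDC1, a co-chaperone with zinc-binding domains, fell with shCSN5 in C4-2 (log2 fold change -0.39 ± 0.11 (SE), adjusted p = 0.028) and PC3 (log2 fold change -0.58 ± 0.10 (SE), adjusted p = 0.023), and was the member of this class that rose with CSN5i-3 in PC3, at 34.9 and 32.6 CPM in PC3 CSN5i-3 libraries, against 23.2 and 26 CPM in PC3 DMSO libraries (log2 fold change 0.46 ± 0.05 (SE), adjusted p = 2.6e-11). CDC37, which brings kinases to HSP90, rose in 22Rv1 with shCSN5 (log2 fold change 0.33 ± 0.10 (SE), adjusted p = 0.025). STUB1, the ubiquitin ligase CHIP, fell in PC3 with CSN5i-3 (log2 fold change -0.61 ± 0.03 (SE), adjusted p = 2.2e-26). In that comparison the log ratio of replicates had a Pearson's r of -0.07 and 0.02 with GC content across all genes, and the log2 fold change itself an r of -0.25. A fit with a GC offset gave STUB1 -0.26 there. The 7 calls of this class in PC3 with shCSN5 were 3 without shCSN5 replicate 1 and 2 without replicate 2. Those in LNCaP with CSN5i-3 numbered 6, and 3 without either CSN5i-3 library, and the 3 lower calls in 22Rv1 with shCSN5 were 0 without shCSN5 replicate 1.

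In 5 of the 7 comparisons with undisputed labels, the largest rise among the 44 genes was that of the small heat shock gene HSPB8 or CRYAB. HSPB6, a small heat shock gene outside the 44, was lower with CSN5i-3 in LNCaP, 22Rv1 and PC3, as given below. HSPB8, which works with BAG3 in clearing misfolded proteins, had 22.2 and 22.5 CPM in LNCaP shCSN5 libraries, against 3.32 and 2.89 CPM in LNCaP scramble libraries (log2 fold change 2.84 ± 0.18 (SE), adjusted p = 2.5e-04). In C4-2 it had 17.9 and 18 CPM in C4-2 shCSN5 libraries, against 8.23 and 6.74 CPM in C4-2 scramble libraries (log2 fold change 1.26 ± 0.16 (SE), adjusted p = 9.7e-04). With CSN5i-3 it had 52.7 and 52.3 CPM in LNCaP CSN5i-3 libraries, against 1.91 and 1.88 CPM in LNCaP DMSO libraries (log2 fold change 4.79 ± 0.10 (SE), adjusted p = 3.9e-07). Its levels were 74.5 and 70.1 CPM in 22Rv1 CSN5i-3 libraries, against 13 and 12.8 CPM in 22Rv1 DMSO libraries (log2 fold change 2.49 ± 0.16 (SE), adjusted p = 6.0e-04). The libraries of each group lay close together and the groups did not overlap. In 22Rv1 with shCSN5 the values were 21 and 21.1 CPM in 22Rv1 shCSN5 libraries, against 16.9 and 17.1 CPM in 22Rv1 scramble libraries (log2 fold change 0.31 ± 0.12 (SE), adjusted p = 0.053), which did not pass. PC3 libraries held almost none, with 0 to 4 counts in those of the shRNA experiment, where it was not tested, and 3 and 2 counts with CSN5i-3 against 13 and 16 counts with DMSO, a difference called as lower (adjusted p = 0.0012).

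CRYAB, alpha-B-crystallin, had 9.17 and 7.64 CPM in LNCaP shCSN5 libraries, against 2.36 and 2.54 CPM in LNCaP scramble libraries (log2 fold change 1.78 ± 0.20 (SE), adjusted p = 0.0016). With CSN5i-3 in LNCaP it had 21 and 21.4 CPM in LNCaP CSN5i-3 libraries, against 1.47 and 1.17 CPM in LNCaP DMSO libraries (log2 fold change 4.01 ± 0.13 (SE), adjusted p = 1.3e-06). In 22Rv1 it was rare, with 41 and 30 counts in CSN5i-3 libraries, against 4 and 3 counts in DMSO libraries (log2 fold change 3.29 ± 0.41 (SE), adjusted p = 0.0031). In PC3 with shCSN5 it was also rare, with 45 and 37 counts in shCSN5 libraries, against 19 and 7 counts in scramble libraries (log2 fold change 1.45 ± 0.36 (SE), adjusted p = 0.048). That call was lost when a library was left out and under another alternative fit. C4-2 with shCSN5 had 5.33 and 4.98 CPM in C4-2 shCSN5 libraries, against 5.29 and 4.77 CPM in C4-2 scramble libraries, which overlapped. HSPB1, the abundant HSP27, rose in LNCaP with CSN5i-3, to 1083 and 964 CPM in LNCaP CSN5i-3 libraries, against 301 and 477 CPM in LNCaP DMSO libraries (log2 fold change 1.39 ± 0.19 (SE), adjusted p = 8.7e-04). In 22Rv1 it rose with shCSN5, to 175 and 118 CPM in 22Rv1 shCSN5 libraries, against 93.7 and 55.0 CPM in 22Rv1 scramble libraries (log2 fold change 0.98 ± 0.22 (SE), adjusted p = 0.0038). Across all genes tested, the log ratio of replicates had a Pearson's r of 0.38 and 0.51 with GC content in these groups. This HSPB1 call held with a GC offset but was lost under another alternative fit. In PC3 with CSN5i-3 it fell, to 64.9 and 67.6 CPM in PC3 CSN5i-3 libraries, against 137 and 141 CPM in PC3 DMSO libraries (log2 fold change -1.07 ± 0.03 (SE), adjusted p = 3.4e-36). In the other labelled comparisons its libraries overlapped.

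**Figure D3:**
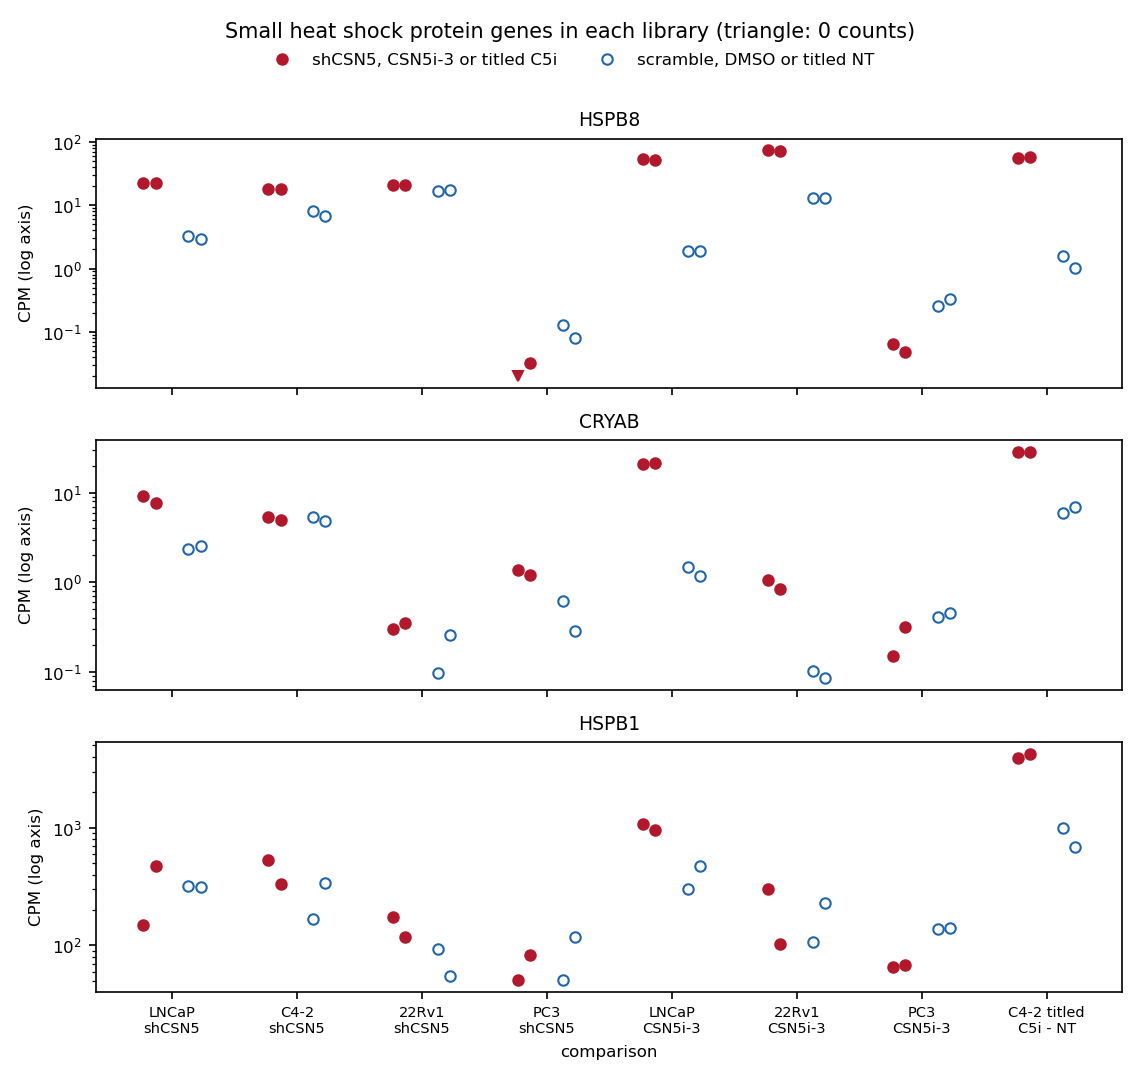
CPM of HSPB8, CRYAB and HSPB1 (vertical log axes) in each library of the 8 comparisons (horizontal axis). Filled points are shCSN5, CSN5i-3 or titled C5i libraries, open points scramble, DMSO or titled NT libraries, and the triangle is a library with 0 counts. HSPB8 with CSN5i-3 stands near 52 CPM in LNCaP against 1.9 CPM with DMSO, while the HSPB1 libraries of several groups lie apart from each other.

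None of the TRiC subunits passed the test as higher with all libraries in the fit, and 15 of their values were called lower in each experiment. Of their 32 values in the shRNA experiment 29 were below 0 and 15 passed the test as lower, and of their 24 values in the labelled inhibitor comparisons 22 were below 0 and 15 passed as lower. The share of all genes called lower was 6.41% in PC3, 21.3% in 22Rv1, 17.4% in LNCaP and 16.2% in C4-2 with shCSN5, and 26.5% in LNCaP, 38.5% in PC3 and 12.2% in 22Rv1 with CSN5i-3. With shCSN5, 7 of the 8 subunits fell in PC3 (all but CCT8), 6 of 8 in 22Rv1, and 1 of 8 each in LNCaP (CCT7) and C4-2 (CCT6A). With CSN5i-3, all 8 fell in LNCaP, 7 of 8 in PC3 (all but TCP1) and 0 of 8 in 22Rv1. In 22Rv1 with CSN5i-3, 0 subunits passed edgeR's quasi-likelihood test at an unadjusted p under 0.05, and DESeq2 called 0, while a fit with a GC offset called 4 lower.

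TCP1, the alpha subunit, had 271 and 248 CPM in PC3 shCSN5 libraries, against 488 and 439.6 CPM in PC3 scramble libraries (log2 fold change -0.84 ± 0.10 (SE), adjusted p = 0.011). Its levels were 214 and 224 CPM in LNCaP CSN5i-3 libraries, against 369.9 and 344 CPM in LNCaP DMSO libraries (log2 fold change -0.71 ± 0.06 (SE), adjusted p = 1.2e-04). In PC3 with CSN5i-3 its 4 libraries held 173 and 164 CPM in PC3 CSN5i-3 libraries, against 168 and 169 CPM in PC3 DMSO libraries, and so overlapped. CCT3 had 585 and 582 CPM in PC3 shCSN5 libraries, against 887 and 931 CPM in PC3 scramble libraries (log2 fold change -0.64 ± 0.09 (SE), adjusted p = 0.013). Its levels were 413 and 421 CPM in LNCaP CSN5i-3 libraries, against 634 and 606 CPM in LNCaP DMSO libraries (log2 fold change -0.57 ± 0.06 (SE), adjusted p = 1.6e-04). CCT5 had 217 and 217 CPM in PC3 CSN5i-3 libraries, against 338 and 338 CPM in PC3 DMSO libraries (log2 fold change -0.64 ± 0.03 (SE), adjusted p = 6.3e-31), the largest fall of a subunit with the inhibitor in PC3. Its levels were 371 and 379.6 CPM in 22Rv1 shCSN5 libraries, against 463 and 493 CPM in 22Rv1 scramble libraries (log2 fold change -0.35 ± 0.08 (SE), adjusted p = 0.0033). CCT6A was called lower in 3 of the 4 shRNA comparisons, 2 of the 3 labelled inhibitor comparisons and C4-2 titled C5i minus titled NT. In 22Rv1 with shCSN5 it had 498 and 519.7 CPM in 22Rv1 shCSN5 libraries, against 678 and 744 CPM in 22Rv1 scramble libraries (log2 fold change -0.48 ± 0.08 (SE), adjusted p = 6.4e-04). The subunit falls stayed within -0.35 and -0.84 on the log2 scale among those called in PC3 with shCSN5, and within -0.34 and -0.71 in LNCaP with CSN5i-3. CCT2, CCT4, CCT7 and CCT8 are the other subunits, and CCT8 in PC3 with shCSN5 had -0.24 ± 0.11 (SE).

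In LNCaP with shCSN5, CCT2 and CCT4 were above scramble in both libraries, by 0.32 ± 0.14 and 0.31 ± 0.15 (SE), and CCT3 and CCT7 below it, with log2 fold changes of -0.35 ± 0.12 and -0.47 ± 0.12, of which that of CCT7 passed the test. When shCSN5 replicate 1 was left out there, 6 subunits were called lower and 2 higher, and when shCSN5 replicate 2 was left out, 3 were lower and 3 higher. Without either scramble library none was called lower. The PC3 shCSN5 count of 7 was 3 without shCSN5 replicate 1 and 1 without replicate 2. The 22Rv1 shCSN5 count of 6 was 2 without shCSN5 replicate 1 and 2 with a spread shared by all 16 shRNA libraries. For CSN5i-3 the count was 7 or 8 in LNCaP and 7 in PC3 whichever library was left out.

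**Figure D4:**
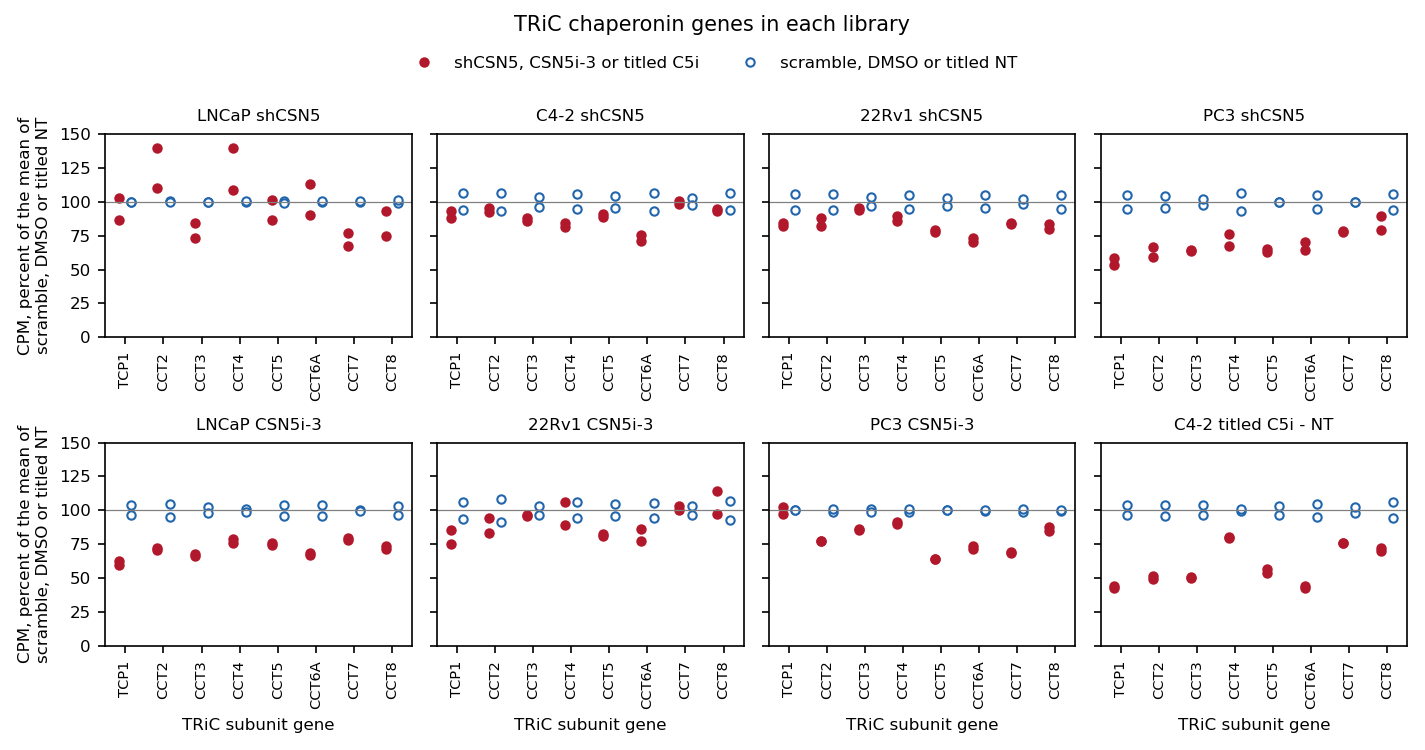
CPM of the 8 TRiC subunit genes (horizontal axes) in each library, as percent of the mean of the scramble, DMSO or titled NT libraries (vertical axis), in 8 panels, 1 per comparison. Filled points are shCSN5, CSN5i-3 or titled C5i libraries and open points the others. Filled points lie below the open ones for all 8 subunits in LNCaP with CSN5i-3 and in C4-2 titled C5i, and above them for CCT2 and CCT4 in LNCaP with shCSN5.

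Of the chaperones of other compartments, HSPE1, the mitochondrial HSP10, fell most often, in 2 of the 4 shRNA comparisons and all 3 labelled inhibitor comparisons. HSPE1 was also lower for C4-2 titled C5i minus titled NT. It had 208 and 219 CPM in 22Rv1 shCSN5 libraries, against 308 and 349 CPM in 22Rv1 scramble libraries (log2 fold change -0.62 ± 0.08 (SE), adjusted p = 1.5e-04). Its levels were 108 and 98.2 CPM in PC3 shCSN5 libraries, against 210.0 and 188 CPM in PC3 scramble libraries (log2 fold change -0.95 ± 0.11 (SE), adjusted p = 0.0087). With CSN5i-3 it had 146 and 165 CPM in 22Rv1 CSN5i-3 libraries, against 271 and 238 CPM in 22Rv1 DMSO libraries (log2 fold change -0.71 ± 0.14 (SE), adjusted p = 0.016). HSPD1, its partner HSP60, fell with shCSN5 in 22Rv1, with 1517 and 1576 CPM in 22Rv1 shCSN5 libraries, against 2141 and 2358 CPM in 22Rv1 scramble libraries (log2 fold change -0.54 ± 0.09 (SE), adjusted p = 4.8e-04), and in PC3 (log2 fold change -0.58 ± 0.11 (SE), adjusted p = 0.027), but was higher in PC3 with CSN5i-3 (log2 fold change 0.23 ± 0.02 (SE), adjusted p = 1.3e-12). HSPA9, the mitochondrial HSP70, fell in 22Rv1 with shCSN5 (log2 fold change -0.29 ± 0.08 (SE), adjusted p = 0.013). DNAJA3, a mitochondrial HSP40, was higher in LNCaP and lower in PC3 with CSN5i-3, with log2 fold changes of 0.20 ± 0.06 and -0.20 ± 0.03 (SE).

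HSPA13, an HSP70-like protein of microsomes, rose in PC3 in both experiments. It had 178 and 159 CPM in PC3 shCSN5 libraries, against 111 and 97.4 CPM in PC3 scramble libraries (log2 fold change 0.69 ± 0.12 (SE), adjusted p = 0.020). Its levels were 256 and 242 CPM in PC3 CSN5i-3 libraries, against 128 and 126 CPM in PC3 DMSO libraries (log2 fold change 0.97 ± 0.03 (SE), adjusted p = 3.3e-37). In LNCaP with CSN5i-3 it had 63.9 and 69.6 CPM in LNCaP CSN5i-3 libraries, against 43.9 and 37.5 CPM in LNCaP DMSO libraries (log2 fold change 0.71 ± 0.10 (SE), adjusted p = 8.4e-04). In 22Rv1 with shCSN5 it was lower (log2 fold change -0.27 ± 0.08 (SE), adjusted p = 0.017). The 2 PC3 comparisons and the LNCaP inhibitor comparison had no overlap between groups.

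The GC offset moved some of the called values given above by more than 1.5 times. In PC3 with CSN5i-3 it gave log2 fold changes of 0.26 for DNAJA1, 0.20 for HSPH1, 0.14 for CHORDC1, 0.11 for HSPD1, 0.49 for DNAJB2 and -0.54 for HSPA4. The calls of HSPA8 (0.02) and DNAJA3 (-0.06) were lost there. With shCSN5 it gave 0.43 for HSPA13 and 0.56 for DNAJB4 in PC3, -0.25 for CHORDC1 in C4-2 and 0.13 for CDC37 in 22Rv1, and the call of HSPA13 in 22Rv1 (-0.09) was lost. HSF1 in LNCaP with CSN5i-3 became 0.27.

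Whether the effect of shCSN5 depended on the line was tested directly. It differed between the 4 lines for 33 of the 44 genes, against 38.8% of all genes tested. Between PC3 and LNCaP, 23 of 44 genes had a lower effect in PC3 and 1, HSPA13, a higher one, against 13.1% and 11% of all genes (24.1% in all). The smallest adjusted p-values belonged to DNAJA1 (-1.88 ± 0.16 (SE), adjusted p = 2.1e-04), DNAJB6 (-1.77 ± 0.17 (SE), adjusted p = 3.6e-04) and HSPA8, given above. This count of 24 was 15 without PC3 shCSN5 replicate 1, 11 without PC3 shCSN5 replicate 2 and 10 without either LNCaP scramble library.

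Between 22Rv1 and C4-2, 3 effects were higher in 22Rv1 and 4 lower, against 5.53% and 7.76% of all genes (13.3% in all). Besides DNAJB4 they included HSPA2 (1.85 ± 0.30 (SE), adjusted p = 0.0049) and HSPB8 (-0.98 ± 0.16 (SE), adjusted p = 0.0053). The 7 were 3 without 22Rv1 shCSN5 replicate 1, 22Rv1 scramble replicate 2 or C4-2 shCSN5 replicate 2, and 12 without C4-2 scramble replicate 1. For CSN5i-3 at 5 µM, LNCaP minus 22Rv1, 3 effects were higher and 6 lower, against 5.57% and 9.99% of all genes (15.6% in all), with HSPB8 at 2.27 ± 0.14 (SE), adjusted p = 1.0e-04, DNAJB5 at 1.09 ± 0.17 (SE), adjusted p = 0.0066 and CCT3 at -0.55 ± 0.10 (SE), adjusted p = 0.012. Those 9 were 2 to 4 without 1 of the LNCaP libraries or 22Rv1 DMSO replicate 2, and 15 without 22Rv1 CSN5i-3 replicate 1.

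Averaged over the 4 lines, with the line as a term, shCSN5 raised 4 of the 44 genes and lowered 11, against 19.5% and 14.7% of all genes (34.2% in all). The 4 were HSPB8 (1.35 ± 0.33 (SE), adjusted p = 0.0053), CRYAB (1.03 ± 0.24 (SE), adjusted p = 0.0042), DNAJB4 (0.67 ± 0.15 (SE), adjusted p = 0.0028) and DNAJB2 (0.43 ± 0.12 (SE), adjusted p = 0.010). The 11 were FKBP4, CHORDC1, STIP1, HSP90AA1, HSPE1 and the subunits CCT6A, CCT3, CCT5, CCT7, TCP1 and CCT8, the last at -0.21 ± 0.07 (SE), adjusted p = 0.031. HSPB8 had 0 to 4 counts in the PC3 libraries, and effects on 33 of the 44 genes also differed between lines.

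In PC3 the inhibitor and the shRNA had effects that differed for 23 of the 43 genes, among them stress-inducible HSP70 and HSP40 genes that fell with one and rose with the other. CSN5i-3 minus shCSN5 effects were higher for 21 of 43 genes and lower for 2, against 20.5% and 18.6% of all genes (39.1% in all). The smallest adjusted p-values were those of DNAJB1 (1.87 ± 0.09 (SE), adjusted p = 1.4e-05), HSPA1B (2.33 ± 0.13 (SE), adjusted p = 2.8e-05) and DNAJA1 (1.59 ± 0.12 (SE), adjusted p = 8.7e-05). HSPA8, STIP1, HSPH1 and CHORDC1 followed, and BAG3 was 1 of the 2 with a lower effect (-0.60 ± 0.12 (SE), adjusted p = 0.0059). In the CPM given above, HSPA1B, DNAJB1, DNAJA1, HSPH1 and HSPA8 were higher in PC3 scramble than in PC3 DMSO libraries. HSPA8 and HSPH1 with shCSN5 also stayed above their levels with CSN5i-3. The scramble and DMSO libraries came from separate tables, and the difference in their levels was not tested.

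**Figure D5:**
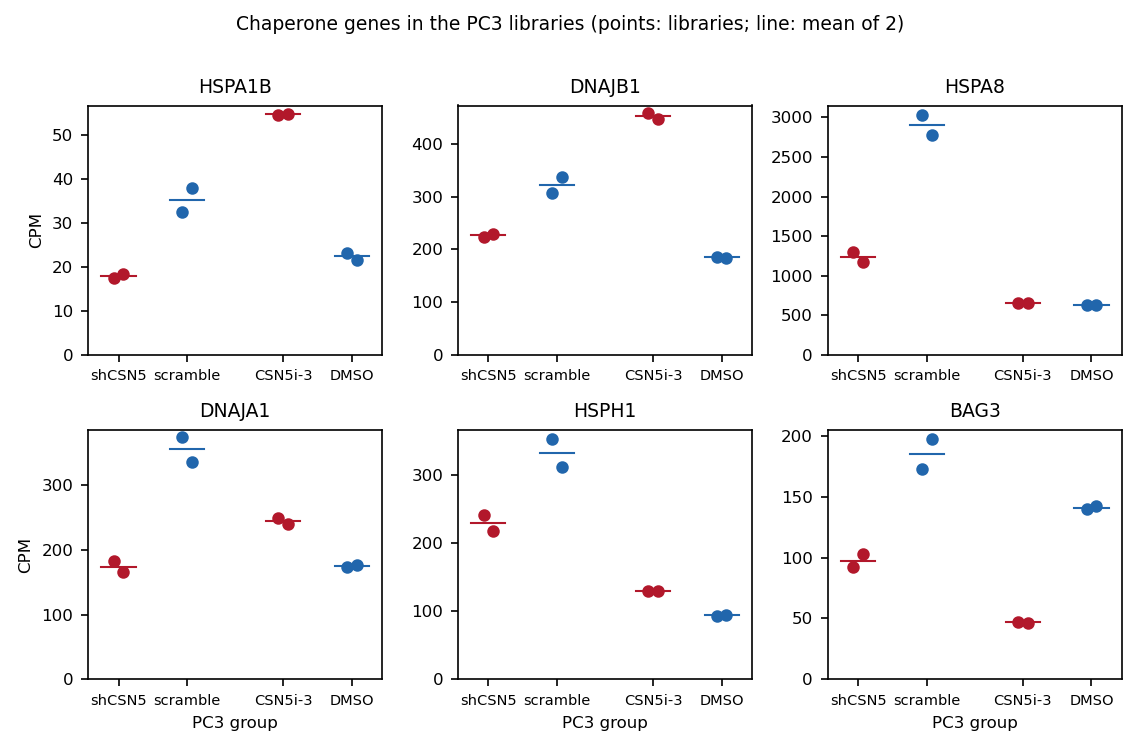
CPM (vertical axes from 0) of 6 chaperone genes in the PC3 libraries, as points with the mean of 2 as a line, in the groups shCSN5, scramble, CSN5i-3 and DMSO (horizontal axes). HSPA1B, DNAJB1, DNAJA1 and HSPH1 lie below scramble with shCSN5 and above DMSO with CSN5i-3, and BAG3 lies below both.

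In LNCaP the same test gave 3 higher and 11 lower CSN5i-3 effects of 43 genes, against 6.83% and 14.5% of all genes (21.3% in all). HSPB8 (1.85 ± 0.18 (SE), adjusted p = 4.6e-04) and CRYAB (2.13 ± 0.24 (SE), adjusted p = 9.2e-04) rose further with the inhibitor, and PTGES3 (-0.88 ± 0.14 (SE), adjusted p = 0.0037) was lower with it. The 14 were 5 and 7 without CSN5i-3 replicates 1 and 2, 9 without DMSO replicate 1, 4 and 6 without scramble replicates 1 and 2, and 29 without shCSN5 replicate 2. In 22Rv1, HSPB8 alone of 44 genes differed (2.19 ± 0.14 (SE), adjusted p = 0.0017), against 2.38% of all genes higher and 1.90% lower (4.28% in all), and 5 differed without CSN5i-3 replicate 1.

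Between the pairs of C4-2 inhibitor libraries 39 of 43 tested genes were called, 27 of them lower. Of all genes, 74.9% were called there and 37.9% were lower, so most genes of any kind differed. Titled C5i minus titled NT, HSPB8 had 55.9 and 57.7 CPM in C4-2 titled C5i libraries, against 1.57 and 1.01 CPM in C4-2 titled NT libraries (log2 fold change 5.47 ± 0.16 (SE), adjusted p = 1.9e-10). HSPB1 had 3918 and 4249 CPM in C4-2 titled C5i libraries, against 998 and 679.9 CPM in C4-2 titled NT libraries (log2 fold change 2.28 ± 0.14 (SE), adjusted p = 6.1e-08), and CRYAB 2.14 on the log2 scale. DNAJB4 had 31.4 and 28.1 CPM in C4-2 titled C5i libraries, against 6.24 and 7.30 CPM in C4-2 titled NT libraries (log2 fold change 2.13 ± 0.12 (SE), adjusted p = 3.2e-08). HSPA13 had 91.1 and 81.4 CPM in C4-2 titled C5i libraries, against 16.8 and 18.9 CPM in C4-2 titled NT libraries (log2 fold change 2.27 ± 0.10 (SE), adjusted p = 5.7e-09). FKBP4 had 462 and 481 CPM in C4-2 titled C5i libraries, against 1095 and 1131 CPM in C4-2 titled NT libraries (log2 fold change -1.24 ± 0.06 (SE), adjusted p = 1.3e-08). All 8 TRiC subunits and 7 of 9 genes of the HSP90 class were lower in the libraries titled C5i, with CCT6A at -1.20 and TCP1 at -1.19, and HSPH1 (-1.36), HSPA8 (-0.79) and HSPA2 (-1.94) were lower too. Within each pair the libraries lay far closer to each other than to the other pair. Beside this, 8 genes of the luminal androgen receptor program summed to 1387 to 1389 CPM in the libraries titled C5i, against 5386 to 5392 CPM in those titled NT, and the 3 of 6 leukocyte markers in that table to 51.5 to 53.0 CPM, against 15 to 15.4 CPM. The part of these genes in the differences was not tested. Which pair received the inhibitor cannot be told from the labels.

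Related chaperone genes outside the 44 were read from 6 lists, whose shares called can be set against the percentages of all genes given above. Of the 3 to 5 tested genes of other HSP70 and small heat shock families, 0 to 2 were higher and 0 to 2 lower in each of the 8 comparisons. The small heat shock gene HSPB6 was lower in 22Rv1 with shCSN5 (-1.94) and with CSN5i-3 in LNCaP (-3.22), 22Rv1 (-2.31) and PC3 (-2.91). For C4-2 titled C5i minus titled NT it was at -2.04. DNAJC9, a histone co-chaperone, was lower with shCSN5 in all 4 lines, with log2 fold changes of -1.24 in LNCaP, -1.01 in C4-2, -0.66 in 22Rv1 and -0.52 in PC3. With CSN5i-3 it was lower in LNCaP, 22Rv1 and PC3, at -0.63, -1.33 and -0.39. For C4-2 titled C5i minus titled NT it was at -2.42. Of the 11 to 13 tested genes of that list of other HSP40 genes, 0 to 2 were higher and 1 to 3 lower with shCSN5 in the 4 lines, 7 were higher and 6 lower in PC3 with CSN5i-3, and 2 were higher and 1 lower in LNCaP with CSN5i-3. Of 18 other partners of HSP70 and HSP90, 0 to 4 were higher and 2 to 4 lower with shCSN5, 5 were higher and 4 lower in LNCaP with CSN5i-3, 0 and 2 in 22Rv1, and 7 and 8 in PC3. In that list FKBP5, an androgen-induced HSP90 immunophilin, was lower in C4-2 (-1.44) and 22Rv1 (-1.18) with shCSN5 and in LNCaP (-1.64) and 22Rv1 (-1.33) with CSN5i-3. Of the 6 prefoldin genes, whose product hands proteins to TRiC, 0 to 2 were higher and 0 or 1 lower with shCSN5, 3 were higher in LNCaP with CSN5i-3, PFDN5 among them at 0.43, and 1 was higher and 4 lower in PC3 with CSN5i-3.

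Of 10 mitochondrial chaperones and proteases, 0 or 1 was higher and 1 to 3 lower with shCSN5, 0 were higher and 2 lower in LNCaP with CSN5i-3, 0 were called in 22Rv1 and 4 were higher and 4 lower in PC3. TRAP1, the mitochondrial HSP90, was lower in LNCaP, C4-2 and 22Rv1 with shCSN5, with log2 fold changes of -0.86, -0.38 and -0.32. With CSN5i-3 it was lower in LNCaP (-0.79) and PC3 (-0.89). Of 9 to 11 tested other genes linked to HSF1, 1 to 4 were higher and 0 to 3 lower with shCSN5, 5 were higher and 1 lower in LNCaP with CSN5i-3, 2 and 0 in 22Rv1, and 5 and 5 in PC3. Among them IER5, an immediate early gene that acts on HSF1, was higher in LNCaP (1.06), C4-2 (0.81) and 22Rv1 (1.36) with shCSN5 and in LNCaP (2.14) and 22Rv1 (1.69) with CSN5i-3.

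Levels in scramble libraries were compared for the 2 pairs of lines that share a table in the shRNA experiment. CPM here are scaled over the 4 libraries of each pair, so they differ a little from those above. PC3 scramble libraries were higher than LNCaP scramble libraries for 20 of the 44 genes and lower for 16, where 41.6% of all genes were higher and 38.2% lower (79.7% in all). HSP90AA1 had 5441 and 4748 CPM in PC3 scramble libraries, against 1215 and 1199.5 CPM in LNCaP scramble libraries (log2 fold change 2.08 ± 0.10 (SE), adjusted p = 1.6e-05). FKBP4, an HSP90 immunophilin, had 213 and 231 CPM in PC3 scramble libraries, against 866 and 889.8 CPM in LNCaP scramble libraries (log2 fold change -1.98 ± 0.08 (SE), adjusted p = 1.3e-05). HSPH1 had 342 and 301 CPM in PC3 scramble libraries, against 122 and 123 CPM in LNCaP scramble libraries (log2 fold change 1.39 ± 0.09 (SE), adjusted p = 6.1e-05). For these 3 genes the libraries of the 2 lines did not overlap. HSPB1 had 48.8 and 113 CPM in PC3 scramble libraries, against 328 and 323 CPM in LNCaP scramble libraries (log2 fold change -2.01 ± 0.38 (SE), adjusted p = 0.0036). HSPB8 held 4 and 2 counts in PC3 scramble libraries, against 104 and 83 counts in LNCaP scramble libraries. HSPA1A held 927 and 1136 counts in PC3 scramble libraries, against 1 count in each LNCaP scramble library. How counts are split between HSPA1A and HSPA1B cannot be told here. Summed over the pair and scaled within each line, PC3 scramble libraries held 62.7 and 84.3 CPM and LNCaP scramble libraries 57.0 and 53.9 CPM.

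22Rv1 scramble libraries were higher than C4-2 scramble libraries for 8 genes and lower for 26, where 35.5% of all genes were higher and 29.8% lower (65.2% in all). HSPH1 had 97.5 and 105 CPM in 22Rv1 scramble libraries, against 769.6 and 682 CPM in C4-2 scramble libraries (log2 fold change -2.84 ± 0.10 (SE), adjusted p = 2.7e-06). CHORDC1 had 31.7 and 38.3 CPM in 22Rv1 scramble libraries, against 206 and 183 CPM in C4-2 scramble libraries (log2 fold change -2.47 ± 0.13 (SE), adjusted p = 8.9e-06). HSPA8 had 1583 and 1739.9 CPM in 22Rv1 scramble libraries, against 4716 and 4364 CPM in C4-2 scramble libraries (log2 fold change -1.45 ± 0.10 (SE), adjusted p = 2.9e-05). These 3 were lower in both 22Rv1 libraries than in both C4-2 libraries. HSPA2 was higher in 22Rv1, with 10.9 and 9.85 CPM in 22Rv1 scramble libraries, against 0.787 and 0.983 CPM in C4-2 scramble libraries (log2 fold change 3.55 ± 0.21 (SE), adjusted p = 1.7e-05). A difference between lines cannot be told apart from a difference between their cultures.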

How the data were processed

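The authors deposited 6 tables of counts, whole-number read counts per gene and library. They used Partek, per the submitters' processing notes. The sources used here name no aligner, genome build or strand setting. One shRNA table holds LNCaP and PC3, the other 22Rv1 and C4-2, and each of the 4 inhibitor tables holds 1 line. The C4-2 inhibitor table had 1 row with neither a gene name nor any value, which was left out, and 0 columns of other series were found. The 44 genes and the related lists were chosen with earlier results of these data known.

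Libraries were grouped by title and description. One characteristic of PC3 shCSN5 replicate 2 calls it drug-treated, but it was kept as shCSN5 by its title and description. Nothing in the labels says that the 2 libraries of a group are separate cultures, so p-values measure only the spread between libraries, which may be technical.

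Each comparison was fitted over all genes of its own 4 libraries in R 4.3.3 with edgeR 4.0.16: TMM factors, a filterByExpr minimum of 10 counts, the quasi-likelihood F test with 2 residual degrees of freedom and a Benjamini-Hochberg adjusted p under 0.05. Each SE was taken from the fold change and its F statistic, as |log2 fold change| over the root of F. Differences between lines or experiments were interaction terms, with the line as a term in the average. Alternatives were DESeq2 1.42.0, its size factors or total counts in edgeR, no filter, a block on the replicate number, a spread shared by 16 shRNA libraries, each library left out in turn and, chosen after seeing that replicates differed with GC content, an offset that removes a loess trend (span 0.3) of log2 CPM on GC percent. Named with values are HSF1, HSPA1A, HSPA1B, HSPA8, HSPH1, DNAJB1, HSP90AA1, HSP90AB1, BAG3, HSPB1 and, in each role, up to 2 called genes per direction with the smallest adjusted p, and the 3 genes with the smallest adjusted p of a difference. Others named were chosen after their values were seen. Promoter windows are from RefSeq (GRCh38.p14).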

Additional observations from a re-analysis of the deposited data

Results flagged for a closer look

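The results listed here are those where the same change was tested in 2 lines or experiments and the test of the difference passed. That test was an interaction term in edgeR's quasi-likelihood fit with Benjamini-Hochberg adjustment over all genes. Being listed does not mean that the share of the 44 genes lay above that of all genes. The results are given as values, with the SE and adjusted p of the named genes in the report. The effect of shCSN5 differed between the 4 lines for 33 of the 44 genes, where 38.8% of all genes did.

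Between PC3 and LNCaP the shCSN5 effect differed for 24 of 44 genes, against 24.1% of all genes. DNAJA1 was at -1.88, DNAJB6 at -1.77 and HSPA8 at -1.91 on the log2 scale. These HSP40 and HSP70 genes were lower in PC3 shCSN5 libraries than in PC3 scramble libraries and higher in LNCaP shCSN5 libraries than in LNCaP scramble libraries. Between 22Rv1 and C4-2 the shCSN5 effect differed for 7 of 44 genes (15.9%), close to the 13.3% of all genes. DNAJB4 was at 1.12, HSPA2 at 1.85 and HSPB8 at -0.98. Between LNCaP and 22Rv1 the effect of CSN5i-3 at 5 µM differed for 9 of 44 genes (20.5%), against 15.6% of all genes. HSPB8 was at 2.27, DNAJB5 at 1.09 and CCT3 at -0.55.

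Between CSN5i-3 and shCSN5 within LNCaP 14 of 43 genes differed, against 21.3% of all genes. HSPB8 was at 1.85, CRYAB at 2.13 and PTGES3 at -0.88. Within 22Rv1 1 of 44 genes (2.27%) differed, HSPB8 at 2.19, against 4.28% of all genes. Within PC3 23 of 43 genes differed, against 39.1% of all genes. DNAJB1 was at 1.87, HSPA1B at 2.33 and DNAJA1 at 1.59. These HSP70 and HSP40 genes fell with shCSN5 against scramble and rose with CSN5i-3 against DMSO. Their CPM were higher in PC3 scramble than in PC3 DMSO libraries, which came from separate tables.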

How the results depend on the processing

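With 2 libraries a group, counts of called genes among the 44 depended on single libraries. Leaving out each library in turn gave 2 to 36 for LNCaP shCSN5 (13 with all libraries), 1 to 6 for C4-2 shCSN5 (6), 11 to 28 for 22Rv1 shCSN5 (22), 11 to 31 for PC3 shCSN5 (27), 18 to 39 for LNCaP CSN5i-3 (31), 5 to 12 for 22Rv1 CSN5i-3 (9), 36 to 40 for PC3 CSN5i-3 (39), 35 to 39 for C4-2 titled C5i (39) and 14 to 20 for the average over lines (15). For differences it gave 27 to 34 between lines (33), 10 to 27 for PC3 minus LNCaP (24), 3 to 12 for 22Rv1 minus C4-2 (7), 2 to 15 for CSN5i-3 in LNCaP minus 22Rv1 (9), and 4 to 29, 1 to 5 and 17 to 32 for CSN5i-3 minus shCSN5 in LNCaP (14), 22Rv1 (1) and PC3 (23). The scramble levels gave 29 to 42 for PC3 minus LNCaP (36) and 29 to 34 for 22Rv1 minus C4-2 (34). A lone library is then assumed to vary like the other groups. The GC offset, which narrows the spread between replicates, gave 25 for LNCaP shCSN5, 26 for C4-2 shCSN5, 25 for 22Rv1 CSN5i-3, 21 for 22Rv1 minus C4-2, 30 for LNCaP minus 22Rv1 with CSN5i-3 and 19 for CSN5i-3 minus shCSN5 in 22Rv1. No filter gave 2 for C4-2 shCSN5 and 4 for CSN5i-3 minus shCSN5 in 22Rv1, and a spread shared by 16 shRNA libraries gave 11 for 22Rv1 shCSN5. DESeq2, and its size factors in edgeR, each gave 5 for LNCaP minus 22Rv1 with CSN5i-3 (3 higher and 2 lower, against 3 and 6). Other scalings moved the split of higher and lower calls to 8 and 1 (DESeq2) or 7 and 6 (total counts) for LNCaP shCSN5, and with total counts to 2 and 5 for C4-2 shCSN5, 9 and 20 for LNCaP CSN5i-3 and 5 and 4 for 22Rv1 minus C4-2. Total counts moved the median of all genes by -0.11 in LNCaP CSN5i-3 and -0.19 in C4-2 titled C5i on the log2 scale, and by 0.17 for PC3 minus LNCaP, -0.14 for CSN5i-3 minus shCSN5 in PC3 and 0.11 for the scramble levels of 22Rv1 minus C4-2. No call reversed its direction under another scaling. The cause of these changes was not tested.

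The replicate numbers share only a number: deviations of same-numbered libraries correlated at -0.64 to 0.54. With the replicate block, C4-2 shCSN5 had 3 calls and 22Rv1 CSN5i-3 had 5, and the other counts stayed within 1.5 times.

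Values that changed sign with the GC offset were CCT6A at -0.21 in LNCaP shCSN5, HSPH1 at 0.10 in 22Rv1 shCSN5, DNAJB6 at 0.12, HSPA9 at -0.0098, DNAJB5 at 0.15 and HSPA14 at -0.024 in PC3 CSN5i-3, and STUB1 at -0.25 in C4-2 titled C5i. Leaving out 1 LNCaP shCSN5 library gave -0.18 and 0.23 for HSF2, -0.20 and 0.15 for HSP90AB1, 0.12 and -0.20 for DNAJA3, 0.16 and -0.40 for CDC37, 0.57 and -1.08 for HSPB1, -0.14 and 0.18 for CCT6A and 0.13 and -0.75 for HSF1, without replicate 1 and replicate 2 in that order. STUB1 in LNCaP CSN5i-3 ranged from -0.28 to 0.27 (without DMSO replicates 1 and 2), and HSPB1 in 22Rv1 CSN5i-3 from -0.67 (without CSN5i-3 replicate 1) to 0.90 (without DMSO replicate 2). Low counts limit HSPA1A in LNCaP and C4-2, CRYAB in 22Rv1 and HSPB8 in PC3.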
